A study of Homo sapiens with 6 samples.

Results

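The genes described here are 9 receptors of the neurotrophins, of the glial cell line-derived neurotrophic factor (GDNF) family and of the ALK family: NTRK2, NTRK3, NGFR, RET, GFRA1, GFRA2, GFRA3, ALK and LTK. They were chosen by symbol as receptors known from the biology of neuroblastoma, a tumour of the sympathetic nervous system, and make up 9 of the 60651 gene identifiers in the count data. Their RNA was compared between 3 control and 3 MYCN-induced cultures of SK-N-AS, an established human neuroblastoma cell line. All 6 cultures carry a tetracycline repressor (TR, from pcDNA6TR) and a MYCN gene under tetracycline control, were kept as single clones, and were held in 500 µg/ml G418 and 5 µg/ml blasticidin. The MYCN-induced cultures, labelled Tet, received tetracycline for 120 h, which the labels also give as 5 days, and the controls are labelled ETOH. No culture given tetracycline without a MYCN gene was analysed here, so effects of MYCN and of tetracycline cannot be told apart. Each value below comes from ribosomal RNA-depleted total RNA of a whole culture, in which fewer cells with a transcript and less of the transcript per cell cannot be told apart.

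Neurotrophins are secreted proteins that act on receptor tyrosine kinases of the NTRK family and on NGFR (p75NTR), a receptor without kinase activity that also binds unprocessed neurotrophins together with sortilin. Ligands of the GDNF family bind a GFRA co-receptor on the cell surface, and the pair then activates the kinase RET. ALK and LTK are related kinases that share the ALKAL ligands, and mutated ALK drives part of familial and sporadic neuroblastoma. In the sympathetic lineage these receptors guide survival, migration and maturation of neural crest cells.

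Of the 9 receptor genes, 6 passed the count filter (at least 10 counts in at least 3 libraries) and were tested (NTRK2, NGFR, RET, GFRA2, ALK and LTK). NTRK2 fell to 32.8% of its control level. NGFR and RET were also lower in all 3 induced libraries than in all 3 controls, at 34.5% and 63.8% of the control mean, but did not pass the test across all genes. GFRA2, ALK and LTK overlapped between the groups. By edgeR's quasi-likelihood test at an adjusted p under 0.05 over 29086 genes, 1 of the 6 was lower and 0 were higher, with 3 and 0 at an unadjusted p under 0.05 and 3 and 0 called by DESeq2. Among all tested genes 2.38% were lower, 1.02% higher and 3.4% changed in either direction by edgeR, with 10.6% lower and 8.13% higher at an unadjusted p under 0.05, and DESeq2 called 4.12% lower and 3.11% higher. Values without overlap and lower after induction were seen in 14.7% of all tested genes, against 3 of the 6 receptors. The median log2 fold change of the 6 was -0.30, with -0.0004 over all tested genes.

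The libraries held 64500589 to 102249336 counted read pairs each, and the biological coefficient of variation was 0.153. Levels are given as CPM, counts scaled to library size with TMM normalization factors. MYCN had 30.3, 35.5 and 32.4 CPM in control replicates 1, 2 and 3 and 211, 221 and 199 CPM in the induced replicates. It rose by 2.68 ± 0.08 on the log2 scale (± standard error, as for all log2 fold changes below, adjusted p = 4.155e-05, edgeR), and the counts do not tell the introduced gene from the cells' own. On the first principal component (44.5% of the variance) induced replicate 3 scored 72.5, induced replicates 1 and 2 scored 14.9 and 13.1, and the controls -41.5 to -27.2. Values of the tested receptors are given with and without this library, as are those of most named genes whose call or direction turned on it. As for identity, the adrenergic factors HAND2 (349 to 559 CPM) and GATA3 (99.9 to 144 CPM) were high in all libraries. HAND2 shares 24.1% of its exon length with the opposite-strand HAND2-AS1, and the counting used no strand, so its level is uncertain. Of the catecholamine enzymes DBH had 3.23 to 9.20 CPM, TH at most 1.58 CPM and DDC at most 10 counts. The neuronal marker STMN2 was at or under 3 counts. Mesenchymal markers were also present, with VIM at 360 to 475 CPM and NOTCH3 at 67.8 to 119 CPM, while CD44 was at 0 in all libraries.

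The DNA just before the annotated starts of these genes was read for the sequence CACGTG, the E-box that MYCN and MAX bind best, and for the variant CATGTG. RefSeq promoter windows (GRCh38.p14) were at hand for 7 of the 9 genes, 15 windows in all, of which the 250 bases before the start were searched on both strands. NGFR and GFRA2 are named only. CACGTG was found in 1 of the 15 windows and in 6.34% of all 35116 windows of that length, and CATGTG in 2 of the 15 and in 9.42% of all. Both searches are descriptions of letters and say nothing about binding. Shown are the start of RET, the most abundant receptor, and the windows of NTRK2 and ALK that held a motif, each cut where an annotated exon of GENCODE 44 begins and with the motif in capitals, 5′ to 3′ on the gene's strand. The RET stretch is chr10:43076819-43077063 (plus strand), that of NTRK2 chr9:84701355-84701604 (plus strand, within the gene) and that of ALK chr2:29223901-29224073 (minus strand, at an internal start).
RET: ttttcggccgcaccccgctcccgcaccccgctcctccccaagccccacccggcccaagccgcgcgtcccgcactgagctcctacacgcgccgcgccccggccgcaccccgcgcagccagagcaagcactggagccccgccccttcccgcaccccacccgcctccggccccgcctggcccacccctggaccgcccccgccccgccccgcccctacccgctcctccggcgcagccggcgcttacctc
NTRK2: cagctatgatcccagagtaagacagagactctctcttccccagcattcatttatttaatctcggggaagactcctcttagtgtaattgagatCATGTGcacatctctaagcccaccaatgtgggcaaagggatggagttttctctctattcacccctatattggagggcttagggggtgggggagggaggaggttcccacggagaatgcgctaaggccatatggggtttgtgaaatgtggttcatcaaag
ALK: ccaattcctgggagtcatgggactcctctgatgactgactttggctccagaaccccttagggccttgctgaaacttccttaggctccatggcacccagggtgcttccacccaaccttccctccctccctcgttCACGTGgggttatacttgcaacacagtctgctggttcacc
The RET stretch is 80.0% G and C and holds neither sequence. That of NTRK2 is 48.4% G and C, with CATGTG 158 bases before the start, and that of ALK is 56.1% G and C, with CACGTG 117 bases before the start. The other 3 windows of NTRK2, which held neither sequence, overlap exons of other transcripts and are not printed.

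**Figure D1:**
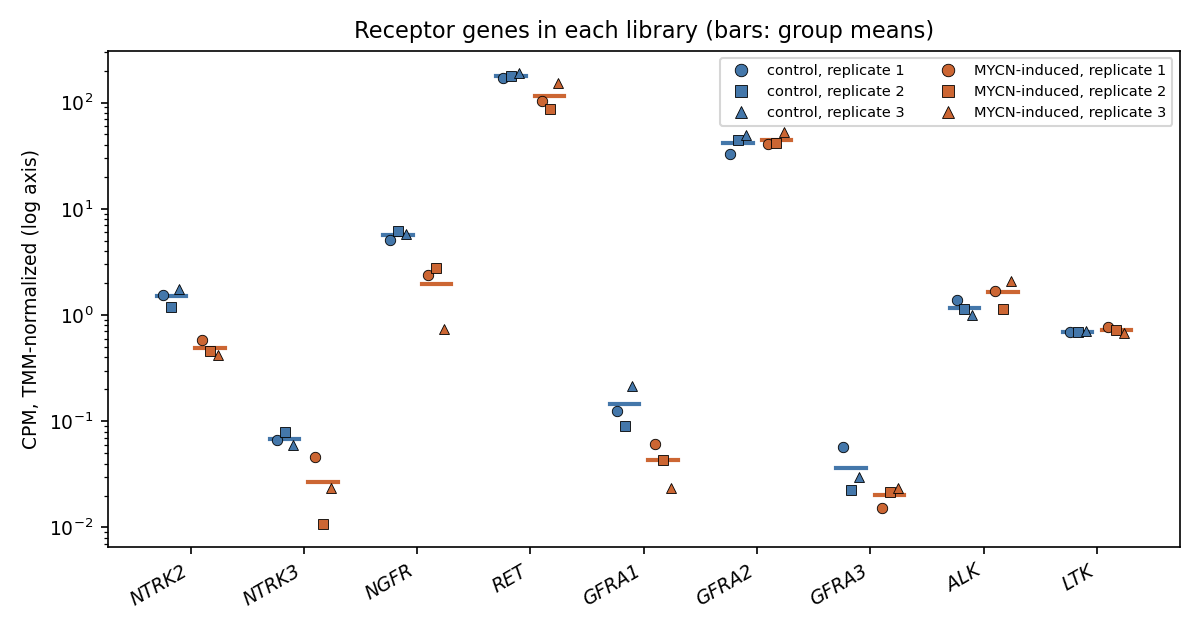
Each receptor gene in each library, as CPM normalized with TMM factors on a log axis, with controls in blue, MYCN-induced cultures in orange, a marker shape per replicate number and bars at the group means. Of the tested receptors, NTRK2, NGFR and RET have every induced library below every control, as do 14.7% of all tested genes. NTRK3 and GFRA1, outside the count filter, are also separated, at few counts. NGFR in induced replicate 3 (0.73 CPM) lies far below the other induced libraries.

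NTRK2 encodes TrkB, the receptor of BDNF and NTF4. The gene (ENSG00000148053.17) spans 84668551 to 85027054 on chromosome 9 of GRCh38, plus strand. It had 160, 106 and 179 counts in control replicates 1, 2 and 3 and 38, 43 and 36 in the induced replicates. After normalization these were 1.53, 1.20 and 1.77 CPM in the controls and 0.59, 0.46 and 0.42 CPM after induction. The groups were well separated, with the lowest control above the highest induced library. The log2 fold change was -1.62 ± 0.21 (95% interval -2.11 to -1.13, adjusted p = 0.009956, edgeR). Without induced replicate 3 it was -1.53 (adjusted p = 0.01365, edgeR), and without control replicate 3 it was -1.49 (adjusted p = 0.05209, edgeR), the 1 alternative of 12 that did not call it. The transcript was low in both groups, and the counts sum the full-length and the truncated forms of TrkB, and the latter lack the kinase.

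Of 12788 protein-coding genes with a mean of at least 1 CPM, those whose pattern over the 6 libraries was nearest to NTRK2 were SCHIP1, FNDC5 and IQCJ-SCHIP1. Likeness was measured as the root mean square difference of log2(CPM + 0.1) after centring each gene, which was 0.12, 0.14 and 0.14. SCHIP1 and IQCJ-SCHIP1 overlap on chromosome 3, so that reads from one can be counted for the other. SCHIP1 encodes a partner of the schwannoma protein NF2, and FNDC5 the precursor of irisin. SCHIP1 had 31.3, 29.9 and 32.7 CPM in the controls and 14.5, 11.4 and 10.8 after induction. FNDC5 went from 45.1, 43.9 and 47.1 CPM to 18.0, 15.3 and 14.0. All 3 were also called lower, with log2 fold changes of -1.36, -1.53 and -1.29 in the order above (edgeR). Since they were picked for their likeness to NTRK2 in these same libraries, a similar fall follows from the choice.

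NTRK3 encodes TrkC, the receptor of NTF3 (ENSG00000140538.16, chromosome 15, 87859751 to 88256768, minus strand). It was close to absent, with 7, 7 and 6 counts in the controls and 3, 1 and 2 after induction. It lay outside the count filter, and in a fit without the filter its log2 fold change was -1.38 ± 0.69 (adjusted p = 0.4096, edgeR).

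NGFR (ENSG00000064300.9, chromosome 17, 49495293 to 49515008, plus strand) encodes p75NTR. Its values were 5.04, 6.16 and 5.78 CPM in the controls and 2.37, 2.75 and 0.73 CPM after induction. All induced libraries were below all controls, and induced replicate 3, with 62 counts, was well below the other induced libraries, with 154.5 and 256.5. The log2 fold change was -1.54 ± 0.40 (95% interval -2.46 to -0.62, adjusted p = 0.08577, edgeR). Without induced replicate 3 the change was smaller, at -1.13, and past the threshold (adjusted p = 0.006935, edgeR), as it was in DESeq2 with all libraries (-1.52, adjusted p = 0.002124). Leaving out that library raised the share of all tested genes called lower to 4.44%. An opposite-strand transcript shares 22.3% of the exon length of NGFR and its antisense RNA NGFR-AS1 shares 4.88%, and the counting used no strand. Those neighbours held at most 7.5 and 5.83 counts in any library.

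RET was the most abundant of the 9 receptors per length (ENSG00000165731.20, chromosome 10, 43077064 to 43130351, plus strand). It had 170, 179 and 188 CPM in the controls and 104, 87.7 and 152 CPM after induction. Induced replicate 3 was the nearest to the controls but stayed below them. The log2 fold change was -0.65 ± 0.18 (95% interval -1.07 to -0.23, adjusted p = 0.1042, edgeR). Without induced replicate 3 it was -0.90 (adjusted p = 0.003907, edgeR). DESeq2 with all libraries gave -0.63 (adjusted p = 0.03035). With 27790 counts over the induced libraries, counting error was small and the spread between cultures set the precision.

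NGFR and RET thus differed in how induced replicate 3 sat within its group. For NGFR this library was the farthest from the controls, and for RET the nearest.

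Of the GFRA co-receptors, GFRA2 alone passed the count filter. GFRA2, the co-receptor of neurturin, was well expressed (ENSG00000168546.11, minus strand), with 32.7, 44.1 and 49.1 CPM in the controls and 40.5, 41.2 and 52.2 CPM after induction. The groups overlapped, and the log2 fold change was 0.09 ± 0.16 (95% interval -0.29 to 0.46, adjusted p = 0.8255, edgeR). Its sign turned without control replicate 1 (-0.07) and without induced replicate 3 (-0.03). GFRA1, the co-receptor of GDNF (ENSG00000151892.15, chromosome 10, 116056925 to 116273284, minus strand), had 13, 8 and 22 counts in the controls and 4, 4 and 2 after induction. Every induced library held fewer of them than any control. GFRA1 lay outside the count filter, and without the filter its log2 fold change was -1.76 ± 0.55 (adjusted p = 0.1299, edgeR). GFRA3, the co-receptor of artemin (ENSG00000146013.11, chromosome 5, 138252380 to 138274621, minus strand), had 6, 2 and 3 counts in the controls and 1, 2 and 2 after induction (-0.80 ± 0.81 without the filter, adjusted p = 0.6992, edgeR).

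ALK (ENSG00000171094.18, chromosome 2, 29192774 to 29921586, minus strand) was expressed weakly, at 1.39, 1.13 and 1.01 CPM in the controls and 1.66, 1.14 and 2.11 CPM after induction. Induced replicate 2 lay within the range of the controls, and the others lay above it. The log2 fold change was 0.47 ± 0.24 (95% interval -0.09 to 1.03, adjusted p = 0.3497, edgeR), and 0.24 without induced replicate 3. LTK (ENSG00000062524.16, chromosome 15, 41503637 to 41513887, minus strand) was nearly the same in every library, at 0.70 CPM in each control and 0.77, 0.73 and 0.68 CPM after induction. Its log2 fold change was 0.06 ± 0.15 (95% interval -0.29 to 0.41, adjusted p = 0.8906, edgeR), and 0.11 without induced replicate 3.

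**Figure D2:**
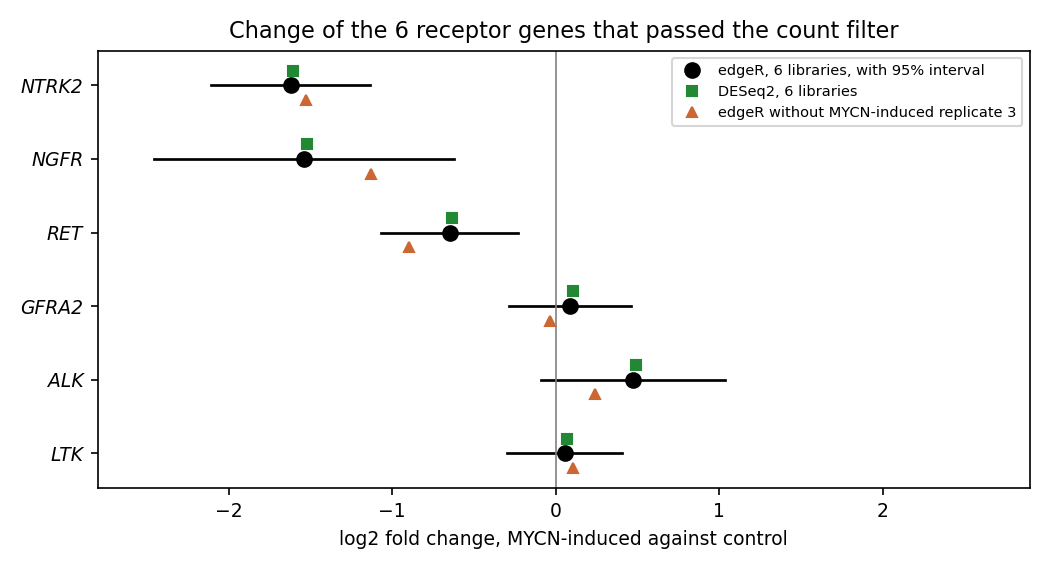
Log2 fold change of the 6 receptors that passed the count filter, MYCN-induced against control, from edgeR with 95% intervals (black), from DESeq2 (green squares) and from edgeR without induced replicate 3 (orange triangles). The intervals of NTRK2, NGFR and RET lie below 0, those of GFRA2, ALK and LTK span 0, and leaving out induced replicate 3 moves NGFR towards 0 (-1.13) and RET away from it (-0.90).

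Levels of different genes were compared per length, as TPM, for which counts were divided by exon length and scaled to the same total in each library. Each gene had 1 exon length, whichever of its transcripts the cells made. It was 20347 bases for NTRK2, 7382 for ALK and 3491 for LTK, and the order below depends on these lengths. In control cells RET stood at 42.8 ± 0.191 TPM (SD, n = 3), followed by GFRA2 at 11.9 ± 1.83 and NGFR at 2.24 ± 0.165 TPM. LTK and ALK came next at 0.329 ± 0.0168 and 0.263 ± 0.0581 TPM, and their ranges overlapped. NTRK2 stood at 0.121 ± 0.0216 TPM, and GFRA3 (0.0306), GFRA1 (0.0246) and NTRK3 (0.0042) were lowest, with GFRA3 and GFRA1 overlapping. In CPM, without division by length, RET, GFRA2 and NGFR also came first in the controls. There NTRK2 (1.20 to 1.77 CPM) lay above LTK (0.70 CPM) and overlapped ALK (1.01 to 1.39 CPM), so its place among these genes is uncertain. After induction RET (26.7 ± 4.13 TPM) and GFRA2 (12.6 ± 0.690 TPM) kept the first places without overlap. NGFR, at 0.812 ± 0.502 TPM, then overlapped ALK (0.356 ± 0.0650 TPM), which overlapped LTK (0.345 ± 0.0585 TPM). NTRK2 was at 0.0399 ± 0.0095 TPM. Per length, RET in the 3 controls spanned 42.6 to 42.9 TPM and in the induced libraries 23.4 to 31.4 TPM.

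The ligands of these receptors were mostly scarce. Of 10 ligand genes 7 were tested, and by edgeR 0 passed the adjusted threshold, with 1 higher and 3 lower at an unadjusted p under 0.05. Among all tested genes 8.13% were higher and 10.6% lower at that unadjusted threshold. DESeq2 called 0 as well and gave GDF15 no adjusted p, and the median log2 fold change of the 7 was -0.13. Values without overlap and lower after induction were seen in 3 of the 7, against 14.7% of all tested genes. BDNF, the ligand of TrkB, had 3.59, 3.52 and 3.31 CPM in the controls and 2.67, 2.66 and 2.98 CPM after induction, all induced libraries below all controls. Its log2 fold change was -0.33 ± 0.11 (adjusted p = 0.1756, edgeR). NTF4, the other ligand of TrkB, had 2.11, 2.39 and 2.91 CPM against 1.82, 1.86 and 1.49 CPM (-0.52 ± 0.17, adjusted p = 0.1413, edgeR). Overlapping genes share up to 32.9% of the exon length of NTF4 and 12.8% of that of BDNF, so that both levels are uncertain. NTF3, the ligand of TrkC, had 1 count in all libraries together.

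Among the ligands that act through RET, NRTN (neurturin, which binds GFRA2) had 0.39, 0.42 and 0.79 CPM in the controls and 0.37, 0.32 and 0.19 CPM after induction (log2 fold change -0.87 ± 0.36, adjusted p = 0.2497, edgeR). The groups did not overlap, but the lowest control and the highest induced library nearly met. GDNF had 5.5, 3.5 and 4.5 counts in the controls and 9, 13 and 4 after induction. ARTN (artemin) and PSPN (persephin) overlapped between the groups, at 0.60 ± 0.145 against 0.54 ± 0.129 CPM and at 5.97 ± 0.416 against 5.73 ± 1.20 CPM (SD, n = 3 each). GDF15, the stress-induced ligand of GFRAL and RET, had 0.41, 0.55 and 0.66 CPM in the controls and 0.65, 0.58 and 14.2 CPM after induction. Its high mean came from induced replicate 3, and the log2 fold change of 3.25 (adjusted p = 0.1989, edgeR) was 0.18 without that library. Of the ALK ligands, ALKAL1 was at 0 in every library, and ALKAL2 had 0.63 ± 0.0377 CPM in the controls and 0.72 ± 0.204 CPM after induction.

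**Figure D3:**
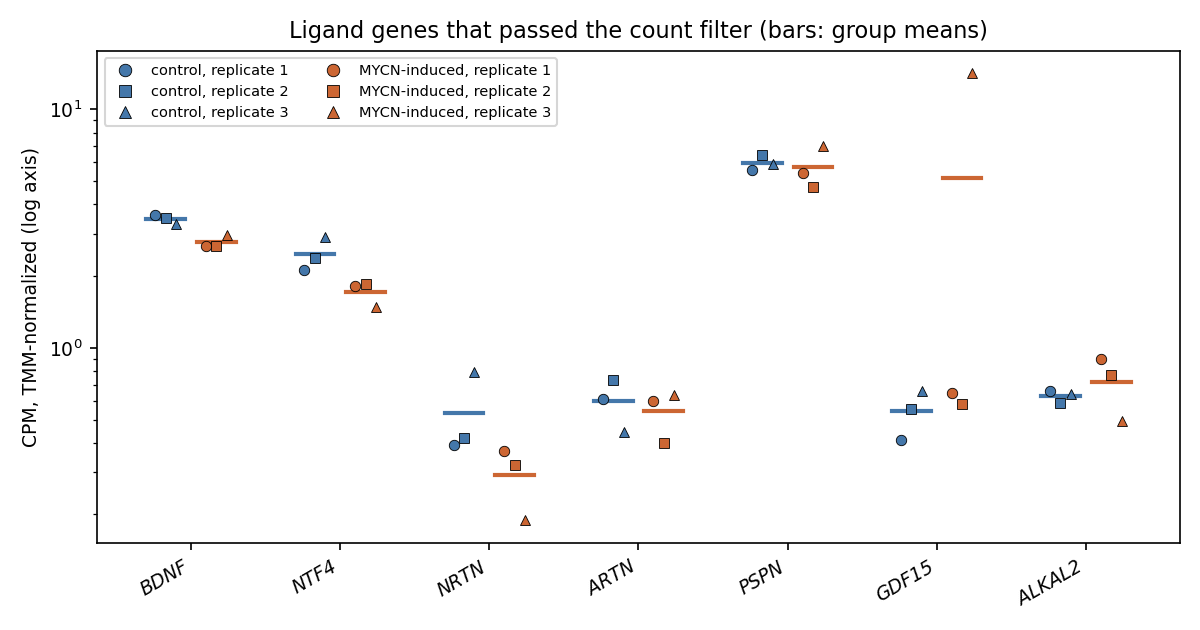
The 7 ligand genes that were tested, as TMM-normalized CPM on a log axis, in each control (blue) and MYCN-induced (orange) library with bars at the group means. BDNF, NTF4 and NRTN have every induced library below every control, as do 14.7% of all tested genes. GDF15 is high in induced replicate 3 only, at 14.2 CPM.

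SORT1 fell among the other receptors and co-receptors. It encodes sortilin, the partner of p75NTR in binding unprocessed neurotrophins, and had 35.7, 34.5 and 34.5 CPM in the controls and 20.3, 20.9 and 17.2 CPM after induction. Both groups were tight and far apart, with a log2 fold change of -0.84 ± 0.09 (95% interval -1.06 to -0.63, adjusted p = 0.005424, edgeR). Without control replicate 2 its log2 fold change was -0.85 (adjusted p = 0.05024, edgeR), in a fit that called 72 lower genes in all, against 692. Of the 12 genes on this list 8 were tested, 1 was lower and 0 were higher by edgeR, against 2.38% and 1.02% of all tested genes. At an unadjusted p under 0.05 the numbers were 3 and 1, against 10.6% and 8.13%. DESeq2 called 2 lower and 1 higher, against 4.12% and 3.11%. The median log2 fold change was -0.30. SDC3, a syndecan that binds GDNF, had 61.9, 70.2 and 73.8 CPM against 69.9, 65.6 and 110 CPM (log2 fold change 0.26, adjusted p = 0.5323, edgeR, and -0.01 without induced replicate 3). NCAM1, which can act as a receptor of GDNF with GFRA1, had 21.9, 22.7 and 23.3 CPM in the controls and 15.2, 12.3 and 32.2 CPM after induction. Its induced libraries lay on both sides of the controls, and the log2 fold change of -0.18 (adjusted p = 0.8128, edgeR) became -0.71 (adjusted p = 0.01176, edgeR) without induced replicate 3. The sortilin relatives SORL1 and SORCS1, named after their values were seen, were lower (-0.73, adjusted p = 0.1087) and higher (1.53, adjusted p = 0.09797) without passing edgeR's test, and were called by DESeq2 (adjusted p = 0.02224 and 0.004063). SORCS1 had 1.20, 1.23 and 3.46 CPM after induction, and without induced replicate 3 its log2 fold change was 0.84 (adjusted p = 0.02167, edgeR) and that of SORL1 -0.51 (adjusted p = 0.03883, edgeR). GFRAL was at 0 in every library, and GFRA4 had 3 counts in 1 library.

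Among the adaptors and proximal signalling proteins that these receptors share, the share of called genes was near that of all tested genes (3.4%). Of 35 genes 34 were tested, and 1 was higher and 0 were lower by edgeR, at a median log2 fold change of 0.01. At an unadjusted p under 0.05 there were 5 in each direction, against 8.13% higher and 10.6% lower among all tested genes. DESeq2 called 2 higher (IRS1 and BEX1), against 3.11%. IRS1, a docking protein of the insulin and IGF receptors that NTRK and ALK kinases can also use, rose from 4.42, 5.15 and 5.01 CPM to 7.87, 9.24 and 10.3 CPM. Its log2 fold change was 0.91 ± 0.13 (adjusted p = 0.01442, edgeR), and 0.83 to 1.01 with a library left out. The call was lost without any 1 control (adjusted p from 0.06565 to 0.08618, edgeR). Calls of higher genes over all genes fell as well, from 298 to 46, 18 and 30 without control replicates 1, 2 and 3. PTPN11, the phosphatase SHP2, was abundant at 397 ± 7.34 CPM in the controls and 443 ± 20.8 CPM after induction (SD, n = 3 each), with a log2 fold change of 0.16 (adjusted p = 0.2367, edgeR) that was 0.20 without induced replicate 3 (adjusted p = 0.04439, edgeR). MAGED1, which binds p75NTR, had 365, 415 and 393 CPM in the controls and 332, 323 and 303.5 CPM after induction (log2 fold change -0.29, adjusted p = 0.07865, edgeR).

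Downstream, the list of ERK feedback and target genes was mixed in direction. Of 20 genes 19 were tested, 1 was higher and 2 were lower by edgeR, and the median was -0.04. Among all tested genes 1.02% were higher and 2.38% lower. At an unadjusted p under 0.05, 3 were higher and 3 lower, against 8.13% and 10.6% of all. DESeq2 called 2 higher and 3 lower, against 3.11% and 4.12%. SPRY1, an inhibitor of signalling from receptor kinases that restrains RET in development, had 169, 166 and 161 CPM in the controls and 116, 110 and 119 CPM after induction. It fell by 0.53 on the log2 scale (± 0.06, adjusted p = 0.007513, edgeR), and its log2 fold change was -0.55 to -0.50 with a library left out. Without control replicate 2 the adjusted p was 0.07038 (edgeR), in a fit that called 72 lower genes in all, against 692. SPRED1, another inhibitor of the pathway, rose from 69.7, 66.4 and 66.4 CPM to 85.5, 94.5 and 81.6 CPM (log2 fold change 0.37 ± 0.07, adjusted p = 0.04206, edgeR). ETV1, a transcription factor downstream of ERK, fell from 340, 316 and 309 CPM to 248, 251 and 202 CPM (log2 fold change -0.46 ± 0.10, adjusted p = 0.04568, edgeR). The calls of SPRED1 and ETV1 were each lost under 8 of 13 alternatives.

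**Figure D4:**
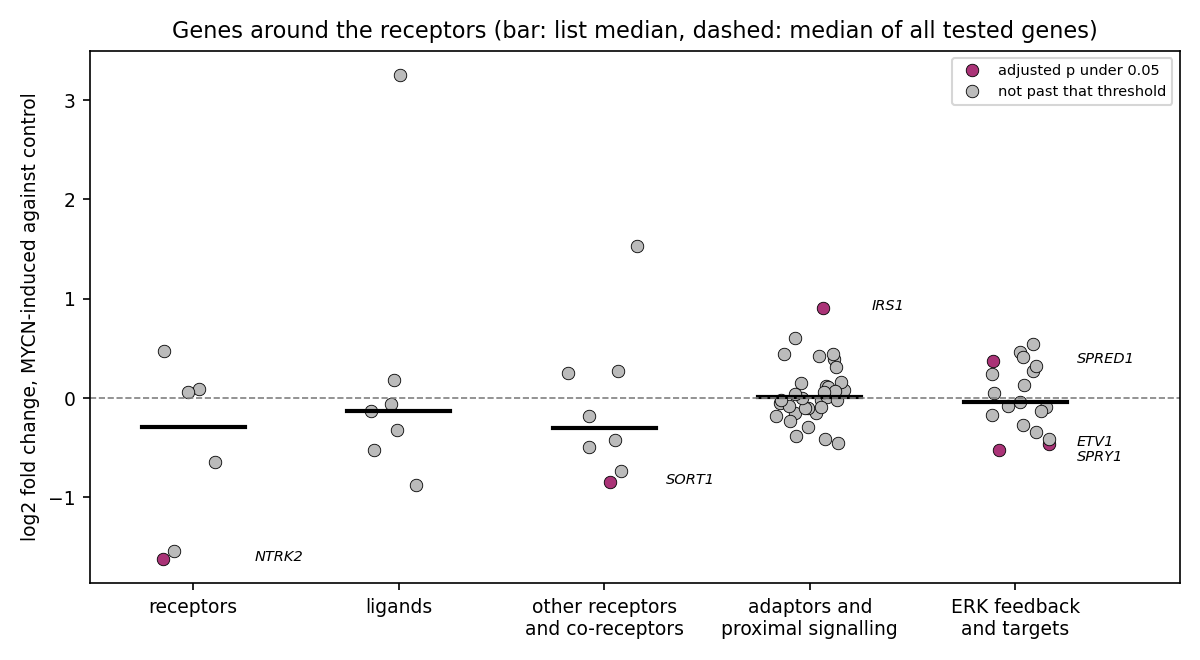
Log2 fold change of each tested gene in the receptor list and in 4 lists around it, with genes past the adjusted threshold in purple and named at the right of their column, list medians as bars and the median of all tested genes as a dashed line. The medians lie between -0.30 and 0.01, NTRK2 and SORT1 are the lowest of their lists, and GDF15 is the single ligand far above 0, at 3.25.

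Some markers of cell identity were called as well, and their part in the receptor values was not tested. Of 13 adrenergic markers 11 were tested and 3 were lower by edgeR, CHGA (-1.21), CHGB (-2.13) and INSM1 (-0.90), against 2.38% of all tested genes. At an unadjusted p under 0.05 the number was 5, against 10.6% of all tested genes, and DESeq2 called 5 lower, against 4.12%. The calls of CHGA and CHGB were lost under 5 and 4 of 13 alternatives. The summed level of the adrenergic list ran from 733 to 982 CPM in the controls and from 709 to 875 CPM after induction. Of this, HAND2 had means of 442 and 471 CPM. Of 12 mesenchymal markers 11 were tested and by edgeR 1 was lower, FN1 (-0.71, lost under 5 of 13 alternatives), and 0 were higher. Most of the list pointed the other way, with 8 log2 fold changes above 0, 3 below and a median of 0.28. At an unadjusted p under 0.05, 5 were higher and 1 lower, against 8.13% and 10.6% of all tested genes. DESeq2 called 3 higher and 1 lower, against 3.11% and 4.12%. Of the 5, FOSL1 and FOSL2 were highest in induced replicate 3 (36.9 and 41.1 CPM), and PRRX1 overlapped the controls. These 3 were named after their values were seen. The list summed to 720 to 739 CPM in the controls and 811 to 829 CPM after induction, of which VIM had means of 364 and 447 CPM. VIM and NOTCH3 had log2 fold changes of 0.30 (adjusted p = 0.0595, edgeR) and -0.12 (0.26 and 0.09 without induced replicate 3, where VIM was called). Of 6 Schwann cell markers, which matter here because NGFR and GFRA3 are also Schwann lineage genes, 2 were tested. By edgeR 0 of these 2 passed, also at an unadjusted p under 0.05, and 0 by DESeq2. Their sums were 1.63 to 1.78 CPM in the controls and 1.46 to 1.90 CPM after induction, mainly SOX10 and ERBB3, and FOXD3 and CDH19 were at 0 in every library. Of 9 leukocyte, endothelial and epithelial markers 6 were tested and 0 passed by edgeR and 0 by DESeq2. At an unadjusted p under 0.05 the number lower was 1, against 10.6% of all tested genes. It was CDH5, named after its values were seen, with 19, 13 and 27 control counts and 3, 6 and 6 after induction. CDH5 thus passed the count filter through the controls alone. The sums of these markers were 69.3 to 79.4 and 59.97 to 74.1 CPM and consisted mainly of KRT18, with CD68 and PTPRC under 6 CPM and CD3E at 0. CD68 shares 81.6% of its exon length with another transcript, so its level is uncertain.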

How the data were processed

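The 3 control and 3 MYCN-induced cultures were sequenced as ribosomal RNA-depleted total RNA (paired-end, stranded kit). The authors deposited estimated counts, read pairs per gene counted on exons. According to the file headers, featureCounts 1.6.4 was applied to unique STAR alignments, pairs that overlap several genes were shared in fractions, and no strand option was set. The submitters' processing notes list STAR 2.7.1a, featureCounts 1.5.1 and GRCh38, and the methods give further options, including strand, so the values were used as the headers describe them. Identifiers were named from GENCODE 44 (99.65% of 60651 matched, 92.67% with the same start and end). The 92 spike-in rows held 0 counts and stayed out of the tests.

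Groups came from the sample titles. The study describes replicates as biologically independent. Counts were rounded. The 29086 genes that reached 10 counts in 3 or more libraries entered edgeR 4.0.16 (R 4.3.3), with TMM normalization, the quasi-likelihood test, no replicate block and Benjamini-Hochberg adjustment over all of them, at a threshold of 0.05. A standard error is the log2 fold change divided by the square root of F. TPM were computed from counts and exon lengths without TMM factors. Replicates differed by more than sampling noise (chi-square per gene 12.2 to 150.6, scaled by total counts only), which does not show that the cultures were independent. Each library was taken as 1 sample. The script was tested on simulated data. Depth was 64500589 to 102249336 pairs per library, and intervals reflect the spread between cultures.

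The members and lists were chosen with earlier results of these data known. The text names all receptors and ligands, MYCN, the called genes of each other list and, where fewer than 3 were called, its most abundant genes up to 3, and the 3 genes most like a called receptor. Identity markers named by their level, and genes counted at 0 or near it, were named after their values were seen. Alternatives were 2 other normalizations, DESeq2 1.42.0, 2 other filters, a replicate block, a threshold of 0.1 and leaving out each library. Some genes of the lists are not reported here and enter no list count. Circular RNAs were not analysed here.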

Additional observations from a re-analysis of the deposited data

How the results depend on the processing

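With 3 libraries per group, calls turned on single libraries more than on normalization. The number of receptor genes called, 1 in the report, was 2 with library size only, 3 with DESeq2, 2 without a count filter, 0 with a mean of at least 100 counts (which removed NTRK2), 2 with the replicate block, 2 at a threshold of 0.1 and 0 to 3 when a library was left out. It was 0 without control replicate 3 and 3 without induced replicate 3. Over all 29086 genes, 298 were higher and 692 lower by edgeR, 904 and 1199 by DESeq2, and 239 and 674 with library size only. Without a count filter 470 and 811 of 45073 were called, and with a mean of at least 100 counts 262 and 505 of 18061. The numbers were 1060 and 1279 without induced replicate 3, 18 and 72 without control replicate 2, and 30 and 135 without control replicate 3. Calls over all genes at a threshold of 0.1 were not counted, so counts at 0.1 have no share beside them. Of the other receptors, with 1 called, 3 were called by DESeq2, 2 without a filter, 2 at 0.1 and 0 to 4 when a library was left out (0 without control replicate 2, 4 without induced replicate 3). Of the adaptors, with 1 called, 2 were called by DESeq2, 2 at 0.1 and 0 to 3 when a library was left out (0 without any 1 control, 3 without induced replicate 3). Of the ERK feedback and target genes, with 3 called, 5 were called by DESeq2, 5 at 0.1 and 0 to 5 when a library was left out (1 without control replicate 1 or 3 or induced replicate 1 or 2, 0 without control replicate 2, 5 without induced replicate 3). Ligands stayed at 0 under all 13 alternatives, and MYCN ranged from 2.63 to 2.74. The cause of these differences was not tested.

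For 38 single genes, 416 of 488 alternatives kept direction and side of the threshold, 36 lost it, 21 gained it and 15 turned the sign. With a library left out the log2 fold change ran from -0.067 to 0.22 for GFRA2, -0.31 to 0.062 for ARTN, -0.23 to 0.062 for PSPN, -0.013 to 0.39 for SDC3, -0.71 to 0.068 for NCAM1, -0.26 to 0.088 for NOTCH3, -0.13 to 0.056 for SOX10, -0.13 to 0.13 for ERBB3, -0.32 to 0.010 for CD68 and -0.35 to 0.043 for PTPRC. ERBB3 (0.025) was at -0.014 when scaled by library size and at -0.0060 when scaled by the upper quartile. Same-numbered libraries deviated from their group means with correlations of 0.21, -0.02 and 0.07. Differently numbered pairs had -0.19 to 0.08. So few values cannot settle whether same-numbered cultures belong together, and the labels do not say. Taking the number as a replicate block gave 265 higher and 575 lower genes.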

Other observations

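RET and its co-receptor GFRA2 were set against each other within each library, a comparison chosen after their values were seen. The ratio of GFRA2 to RET per exon length was 0.229, 0.292 and 0.310 in control replicates 1, 2 and 3 and 0.463, 0.559 and 0.409 in the induced replicates. Every induced library lay above every control. The means were 0.277 ± 0.0430 and 0.477 ± 0.0758 (SD, n = 3 each), a difference of 0.200, or 0.234 without induced replicate 3. Since the pair was picked for its separation, no test is given.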
